A study of Mus musculus with 12 samples.

Results

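Enteroendocrine cells are scattered hormone-secreting cells of the gut epithelium, and 10 genes that define them were followed here through the small intestine and liver of C57BL/6 mice given LCWE or phosphate-buffered saline (PBS). The genes were chosen by name: Gcg, Cck, Gip, Sct, Sst, Pyy, Nts and Ghrl encode hormones, Chga encodes a protein of their storage granules, and Neurod1 encodes a transcription factor of the lineage. All 10 have a row in the expression table, which holds 34348 genes. Total RNA was sequenced in 4 groups of 3 libraries: small intestine with PBS, small intestine with LCWE, liver with PBS and liver with LCWE. LCWE is the usual short name of a cell wall extract of Lactobacillus casei, with which a vasculitis resembling Kawasaki disease is induced in mice. The labels give neither the age of the mice, the time after injection nor the segment of small intestine. The authors' differential table names the treated groups LCWECFA, and what CFA adds is not stated there. Libraries are called by their label numbers: PBS 2, 3 and 4, and LCWE 1, 2 and 4. Whether each library is a different mouse is not said in the labels, so the p-values below may reflect technical spread alone.

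Enteroendocrine cells sense nutrients, bile acids and microbial products in the lumen and release peptides into the blood or onto nearby nerves. Each hormone has its own distribution along the gut: Gip, Cck, Sct and Ghrl are made mainly towards the stomach, and Gcg, Pyy and Nts mainly towards the ileum and colon. All of them are made as prohormones, cut by convertases and stored in granules with chromogranins. Gip and Gcg belong to the secretin family of peptides, as does Sct. Gip is the product of K cells and promotes insulin release after a meal. Gcg is the proglucagon gene, from which L cells of the gut make glucagon-like peptides that promote insulin release, slow the stomach and support the growth of the mucosa.

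The genes in which the groups stood apart were Gip and Gcg, and the 250 bases before their start sites are printed because Gata4, which encodes a GATA factor of the proximal intestine, is followed beside them below. Sequences are from RefSeq on GRCm38.p6, 5′ to 3′ on the strand of the gene, and capitals mark the E-box letters CANNTG, which factors of the Neurod1 class can bind, and the letters GATAA or GATAG, searched on both strands.
Gip (chr11:96024295-96024544, plus strand): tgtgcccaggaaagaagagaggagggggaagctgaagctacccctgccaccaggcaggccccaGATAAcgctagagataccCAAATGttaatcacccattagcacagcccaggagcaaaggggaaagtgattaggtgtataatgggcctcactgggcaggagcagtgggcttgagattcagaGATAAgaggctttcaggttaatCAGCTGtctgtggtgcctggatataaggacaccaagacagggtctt
Gcg (chr2:62483654-62483903, minus strand): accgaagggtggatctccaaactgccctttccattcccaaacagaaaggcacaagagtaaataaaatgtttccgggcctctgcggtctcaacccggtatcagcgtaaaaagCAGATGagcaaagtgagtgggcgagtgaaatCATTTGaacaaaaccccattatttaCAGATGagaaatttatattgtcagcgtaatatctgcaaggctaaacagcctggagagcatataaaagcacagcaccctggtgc
In Gip, GATAA begins 187 and 68 bases before the start site and CANNTG begins 169 and 46 bases before it. In Gcg, CANNTG begins 139, 108 and 83 bases before the start site, and no GATAA or GATAG lies in this window. GATAA or GATAG was found for 5 of the 10 genes (Gip, Cck, Nts, Ghrl and Chga) and in 37.5% of 32817 mouse promoter windows of this length. CANNTG was found for all 10 and in 66.2% of windows. Its form CAGATG was found for 3 (Gcg, Cck and Sct) and in 14.5%. The other letters searched were TGACG (4 genes, 17.7% of windows), TGACGTCA (1 gene, 1.55%) and TATAAA (2 genes, 12.4%). These letters are descriptions of sequence and no measure of binding, and a link to Gata4 was not tested. The GATA letters were added after the values of the genes were seen. Some genes have several start sites and thus more than 1 window, with 14 windows for the 10 genes. A count by gene is therefore not the same measure as a share of windows.

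In the small intestine, Gip stood 3.85-fold lower and Gcg 1.79-fold higher in the LCWE libraries than in the PBS libraries, and in both genes the groups did not overlap. In the other 8 genes the groups overlapped. None of the 10 genes passed at an adjusted p below 0.05 with limma, which tests each gene on log2(RPKM + 0.5) against the spread between libraries, and 0 of all 17510 genes tested passed (0%). RPKM counts reads per kilobase of gene length and per library size, so levels of different genes can be set side by side. An unadjusted p below 0.05 was found for 2 of the 10 genes, Gcg and Gip, beside 12.6% of all genes. With limma voom, a test on the recovered reads, likewise 0 of the 10 passed and the same number had an unadjusted p below 0.05. Groups did not overlap for 2 of the 10 genes, beside 19.3% of all genes, with 13.2% higher and 6.15% lower in LCWE. Without LCWE library 2 the groups of 4 of the 10 did not overlap, with Pyy and Chga added, beside 24% of all genes. Without LCWE library 1 it was the same 2 genes beside 54.4% of all genes. Groups that do not overlap cannot come to overlap when a library is left out, so Gcg and Gip stay in each count. With 3 libraries a side, the smallest two-sided p that exact permutation allows is 0.1, and no permutation test was therefore run. In bulk tissue, fewer cells of a type and less RNA per cell cannot be told apart.

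**Figure D1:**
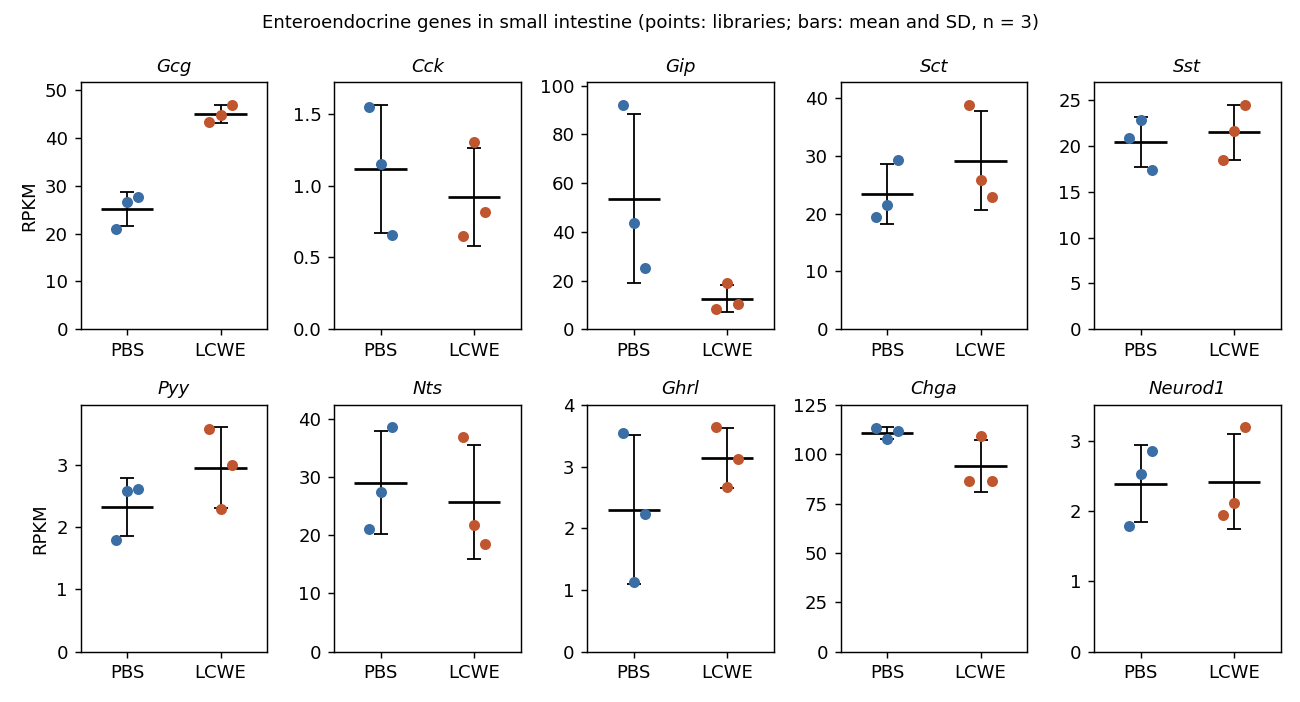
RPKM (vertical axes, each from 0) of the 10 genes in small intestine, with 1 point per library, blue for PBS and orange for LCWE, and bars for the mean and SD of 3 libraries. Gcg stands at 43.3 or more in every LCWE library and at 27.8 or less in every PBS library, and Gip at 18.8 or less in LCWE and 25 or more in PBS.

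Gip (mm10 chromosome 11, 96024545 to 96030831, protein-coding) stood at 92.2, 43.5 and 25.0 RPKM in PBS libraries 2, 3 and 4 and at 8.39, 18.8 and 10.2 RPKM in LCWE libraries 1, 2 and 4. Every LCWE library was below every PBS library, and the PBS libraries were far apart from each other, with a coefficient of variation of 64.7%. The means were 53.6 ± 34.7 RPKM (SD, n = 3) with PBS and 12.5 ± 5.56 RPKM (SD, n = 3) with LCWE. The log2 difference was -1.94 with a standard error of 0.50 and a 95% interval of -3.12 to -0.76, that is, a fold of 0.115 to 0.590 (limma, adjusted p = 0.245). Between 232 and 2418 reads lay behind each of these values. Without PBS library 2, which had the highest Gip, the level was 2.74-fold lower in LCWE (adjusted p = 0.506), and without PBS library 4 it was 5.22-fold lower (adjusted p = 0.196).

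Gcg (chromosome 2, 62474530 to 62483650, protein-coding) stood at 21.02, 26.7 and 27.8 RPKM in PBS libraries 2, 3 and 4 and at 43.3, 44.9 and 47.0 RPKM in LCWE libraries 1, 2 and 4. Both groups were tight and lay well apart. The means were 25.2 ± 3.62 RPKM with PBS and 45.1 ± 1.84 RPKM with LCWE (SD, n = 3 each). The log2 difference was 0.84 with a standard error of 0.12 and a 95% interval of 0.54 to 1.13 on the same scale (limma, adjusted p = 0.177). By unadjusted p, Gcg ranked 29 among the 17510 genes and Gip 438. Leaving out any 1 library gave a Gcg level between 1.64-fold and 1.88-fold higher in LCWE.

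Both genes passed in 1 of the other settings tried. When the 12 libraries of the intestine and the liver were fitted together, so that liver libraries also set the spread, adjusted p was 0.0121 for Gcg and 0.0388 for Gip (limma), and they were 2 of 243 genes past the threshold (1.39%). The differences themselves are the same in that fit. In liver, however, Gcg was at most 0.180 RPKM and Gip at most 0.168 RPKM. The spread added by the liver libraries is thus that of values near 0. The standard error of Gip was 0.395 in the joint fit and 0.496 with the intestinal libraries alone. That of Gcg was nearly the same in both, at 0.120 and 0.123. The joint fit also rests on more libraries, and what brought each gene past the threshold was not tested. As part of the spread comes from liver values near 0, these 2 passes say little about the spread of expressed levels. With the intestinal libraries alone, no setting brought either gene past the threshold.

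**Figure D2:**
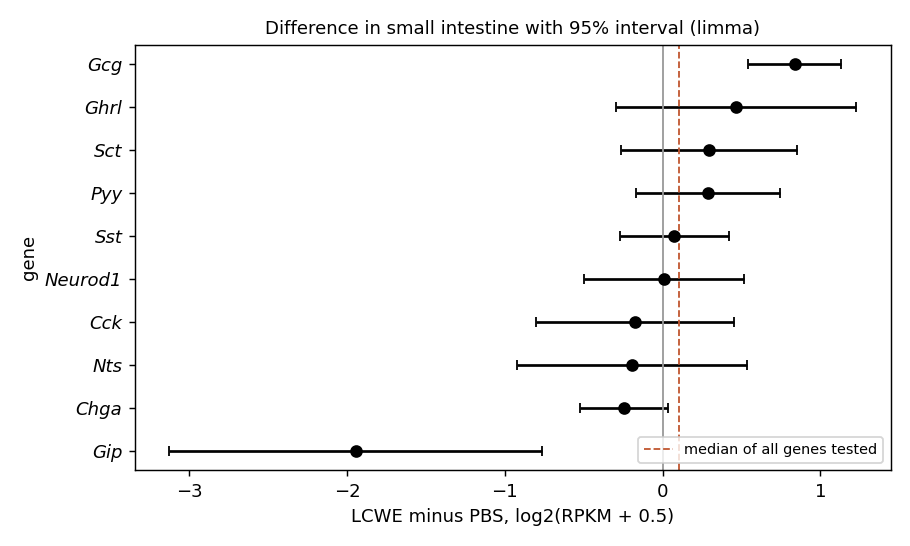
Log2 difference of LCWE minus PBS in small intestine (horizontal axis, log2(RPKM + 0.5)) for the 10 genes, with 95% intervals from limma that are not adjusted for the number of genes. The intervals of Gcg and Gip lie on opposite sides of 0, the other 8 include 0, and the dashed line marks the median of all genes tested, 0.11.

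For the other secretin family member and the remaining hormones of the upper gut, the groups overlapped. Sct (chromosome 7, 141278330 to 141279133), which encodes secretin, the hormone of S cells that drives bicarbonate secretion, stood at 19.4, 21.5 and 29.3 RPKM with PBS, against 38.8, 25.8 and 22.8 RPKM with LCWE. LCWE library 1 was the highest of the 6, and the fold was 1.23 with a 95% interval of 0.833 to 1.80 (limma, adjusted p = 0.564). Cck (chromosome 9, 121489824 to 121495694), the gene of cholecystokinin, which empties the gallbladder, was the lowest of the 10, at 1.55, 1.15 and 0.658 RPKM in PBS and 0.647, 1.30 and 0.815 RPKM in LCWE. Only 26 to 77 reads per library lay behind it, and its interval ran from 0.574-fold to 1.37-fold. Ghrl (chromosome 6, 113716119 to 113719880) encodes ghrelin, the appetite hormone made mainly in the stomach. It stood at 3.54, 1.13 and 2.23 RPKM with PBS, against 3.64, 2.67 and 3.1 RPKM with LCWE, and the fold was 1.38 with a 95% interval of 0.816 to 2.34. Reads of Ghrl may be mixed with those of Gm44033, a gene on the opposite strand over the same span that stood between 1.26 and 2.72 RPKM, and with those of Gm26982, at 0.351 to 0.872 RPKM, since nothing states whether the libraries kept the strand. Of the listed stomach markers, Gkn2, Tff1, Pgc and Chia1 had no reads in any intestinal library.

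Of the hormones of the lower gut, only Gcg had groups that did not overlap. Pyy (chromosome 11, 102106676 to 102107832), which encodes peptide YY, the L cell peptide that slows transit and curbs feeding, stood at 1.78, 2.57 and 2.62 RPKM with PBS, against 3.58, 2.28 and 2.99 RPKM with LCWE. The highest and the lowest LCWE library differed more than the group means did, and the fold was 1.22 with a 95% interval of 0.889 to 1.67 (limma, adjusted p = 0.520). Gcg and Pyy are made by overlapping sets of L cells, and Gcg exceeded Pyy by 10.4 to 11.8 times in PBS libraries and by 12.1 to 19.6 times in LCWE libraries. Nts (chromosome 10, 102481760 to 102490418), which encodes neurotensin, a peptide of N cells of the ileum released by fat, stood at 21.1, 27.5 and 38.5 RPKM with PBS, against 36.8, 21.8 and 18.5 RPKM with LCWE. The groups covered nearly the same range, with an interval of 0.528-fold to 1.45-fold. Insl5, an L cell hormone gene of the colon and outside the 10, was at 0 reads in every PBS library and at 10, 4 and 2 reads in LCWE libraries 1, 2 and 4. It was too low to be tested and was singled out after its values were seen.

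Sst (chromosome 16, 23889581 to 23890844) encodes somatostatin, the peptide of D cells and of some enteric neurons that restrains the other hormones. It stood at 20.9, 22.8 and 17.4 RPKM with PBS, against 18.4, 21.6 and 24.4 RPKM with LCWE. Among the 8 hormones it had the smallest span over the 6 libraries, 1.40-fold from the lowest to the highest, and its interval ran from 0.828-fold to 1.34-fold. Markers of pancreatic islets, which also make Gcg and Sst, summed to at most 0.295 RPKM in any intestinal library. Slc30a8 and G6pc2 had 0 reads in all 6 of these libraries. That sum covers 5 of 7 listed genes, as Ins1 and Ins2 have no row. Exocrine pancreas markers summed to 32.7 to 39.7 RPKM with PBS and 19.5 to 38.5 RPKM with LCWE. Only 2 of them, Cela1 and Clps, reached the level for testing, and neither passed. Markers of enteric neurons summed to between 11.0 and 15.5 RPKM with PBS and between 14.1 and 19.1 RPKM with LCWE. Of the 11 neuron markers, 7 were tested, none passed and all 7 had a higher mean in LCWE, beside 69% of all genes. The groups of 2 of them did not overlap, both higher, beside 13.2% of all genes in that direction. The part of the neuron markers in the levels of Sst, Cck and Nts was not tested.

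Chga (chromosome 12, 102554969 to 102565027) encodes chromogranin A and is shared by most enteroendocrine cells. It had the highest level of the 10, at 113, 108 and 112 RPKM with PBS, against 86.7, 109 and 86.3 RPKM with LCWE. LCWE library 2 lay within the PBS range and the other two lay below it. The fold was 0.844 with a 95% interval of 0.694 to 1.03 (limma, adjusted p = 0.442). Neurod1 (chromosome 2, 79452521 to 79456751), which acts late in the differentiation of these cells, stood at 1.79, 2.53 and 2.85 RPKM with PBS, against 1.95, 2.11 and 3.19 RPKM with LCWE. Its fold was 1.01 with a 95% interval of 0.707 to 1.43. Cerkl overlaps Neurod1 on the same strand and stood at 0.982 to 1.60 RPKM, so how reads were split between them is uncertain. Over the 10 genes the median log2 difference was 0.04, with 6 means higher and 4 lower in LCWE, beside a median of 0.11 and 69% of means higher over all genes tested.

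The order of the hormone levels differed between the groups mainly through Gip and Gcg. In PBS the order by mean RPKM was Chga (111), Gip (53.6), Nts (29.0), Gcg (25.2), Sct (23.4), Sst (20.4), Neurod1 (2.39), Pyy (2.32), Ghrl (2.30) and Cck (1.12). The ranges of neighbours overlapped except between Chga and Gip and between Sst and Neurod1. In LCWE it was Chga (94.1), Gcg (45.1), Sct (29.2), Nts (25.7), Sst (21.5), Gip (12.5), Ghrl (3.14), Pyy (2.95), Neurod1 (2.42) and Cck (0.922). There, the ranges did not overlap between Chga and Gcg, Gcg and Sct, Gip and Ghrl, and Neurod1 and Cck. By mean, Gip was the highest of the 8 hormones in PBS and Gcg in LCWE. The lead of Gip rested on PBS library 2: without it the PBS means were 34.3 RPKM for Gip and 33.0 RPKM for Nts, and in PBS library 4 Gip was below Nts, Sct and Gcg.

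The summed level of the 8 hormones overlapped between the groups, at 143.6 to 181.5 RPKM with PBS and 129.8 to 153.7 RPKM with LCWE. Without Gip the sum was 89.3 to 118.5 RPKM with PBS and 119.6 to 145.3 RPKM with LCWE, so the groups narrowly did not overlap. Gip was left out after its values were seen, and Gcg, which stood apart and higher in LCWE, remains in that sum. The groups of each other hormone overlapped, so this sum does not show that the remaining hormones were higher together. Gip made up 50.8%, 29.6% and 17.4% of the sum of 8 in PBS libraries 2, 3 and 4. In LCWE libraries 1, 2 and 4 it made up 5.46%, 13.5% and 7.85%. Gcg made up 11.6%, 18.2% and 19.3% in PBS and 28.2%, 32.2% and 36.2% in LCWE. Per 100 units of Chga, Gcg stood at 18.6 to 24.8 in PBS and 41.1 to 54.4 in LCWE. Gcg already stood apart and Chga had the lower mean in LCWE, so this ratio adds no separate support. Gip per 100 units of Chga stood at 22.4 to 81.4 in PBS and at 9.67 to 17.2 in LCWE. The ratio of Gcg to Gip was 0.228, 0.613 and 1.11 in PBS and 5.17, 2.39 and 4.61 in LCWE. As both genes already stood apart in opposite directions, this ratio had to stand apart as well, and shares of 1 sum depend on each other. The shares and the values per 100 units of Chga likewise carry the separation of Gip and Gcg themselves.

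**Figure D3:**
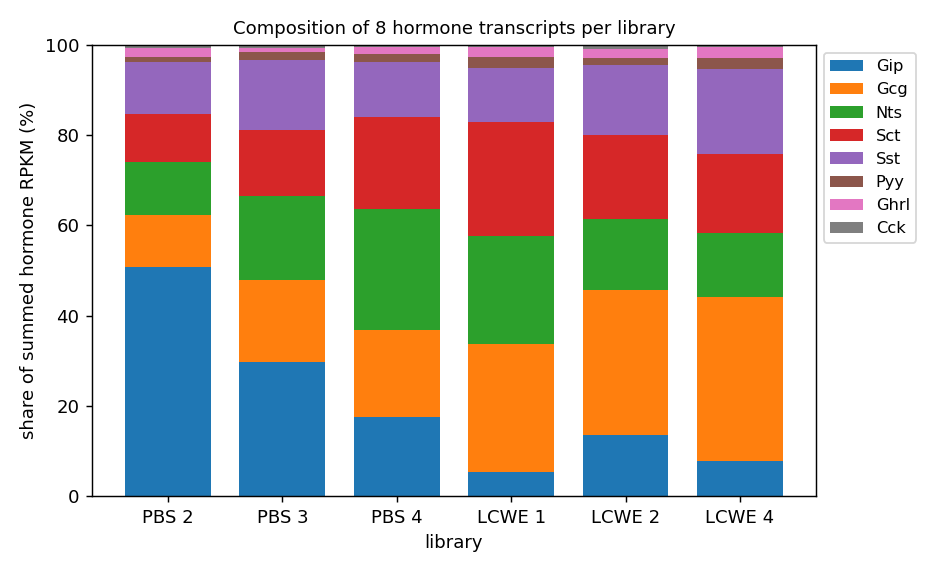
Share of each of 8 hormone genes in their summed RPKM (vertical axis, percent) in the 6 intestinal libraries (horizontal axis). The Gip share runs from 17.4% to 50.8% in PBS and from 5.46% to 13.5% in LCWE, and the Gcg share from 11.6% to 19.3% and from 28.2% to 36.2%.

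Some genes that mark position along the small intestine also stood apart between the groups, namely 3 of 4 tested proximal markers (2 lower and 1 higher in LCWE) and 2 of 7 distal markers (both higher), beside 19.3% of all genes. Values are given first for the 4 with the largest differences, which were chosen after their values were seen. Gata4, a transcription factor of duodenum and jejunum, stood at 8.34, 5.31 and 3.79 RPKM in PBS libraries 2, 3 and 4 and at 0.216, 1.68 and 0.280 RPKM in LCWE libraries 1, 2 and 4. Lct, the lactase of proximal enterocytes, stood at 86.5, 30.1 and 3.02 RPKM with PBS, against 0.186, 1.46 and 0.138 RPKM with LCWE. PBS library 2 was the highest and PBS library 4 the lowest of its group for Gip, Gata4 and Lct, and LCWE library 2 was the highest of its group for all of them. Fabp6, the bile acid binding protein of the ileum, stood at 69.4, 1716 and 2991 RPKM with PBS, against 4837, 4843 and 3517 RPKM with LCWE. Slc10a2, the ileal bile acid transporter, stood at 1.51, 17.6 and 68.4 RPKM with PBS, against 259, 70.4 and 112 RPKM with LCWE. None of these genes passed with limma (adjusted p = 0.195, 0.242, 0.449 and 0.362), although the groups of each did not overlap.

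Over the whole lists, 4 of 7 proximal markers in the table were tested, of which Lct and Gata4 had lower and Slc40a1 and Bco1 higher means in LCWE. Slc40a1, the iron exporter, ran against Lct and Gata4, as Bco1 did by mean, and the groups of Slc40a1 did not overlap. It stood at 0.402, 0.652 and 0.961 RPKM with PBS, against 2.25, 1.53 and 2.08 RPKM with LCWE (limma, adjusted p = 0.206). The summed proximal markers ranged from 10.8 to 100.2 RPKM in PBS and from 8.26 to 13.0 RPKM in LCWE, so the sums overlapped. All 7 distal markers were tested and 6 had higher means in LCWE, beside 69% of all genes. Among the 6 were Fgf15 and Cubn, with log2 differences of only 0.19 and 0.11. The summed distal markers ranged from 658 to 4229 RPKM in PBS and from 4449 to 6594 RPKM in LCWE. No proximal or distal marker was at 0 in all intestinal libraries. Markers of the colon, 6 in number, summed to 43.0 to 107 RPKM in PBS and 64.2 to 134 RPKM in LCWE. Enterocyte markers, which mark the main absorptive cells, were lower in LCWE for 10 of 10 genes, beside 5431 of all 17510 genes. Lct is in this list as well as the proximal one. The log2 differences ran from -0.41 (Sis) to -4.47 (Lct), and the groups of 6 did not overlap, beside 6.15% of all genes lower in LCWE. The enterocyte markers summed to 17336 to 31214 RPKM in PBS and 4439 to 12692 RPKM in LCWE. The part of these marker genes in the levels of Gip and Gcg was not tested, and as the labels name no segment, an effect of LCWE and a difference in the sampled segment cannot be told apart.

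**Figure D4:**
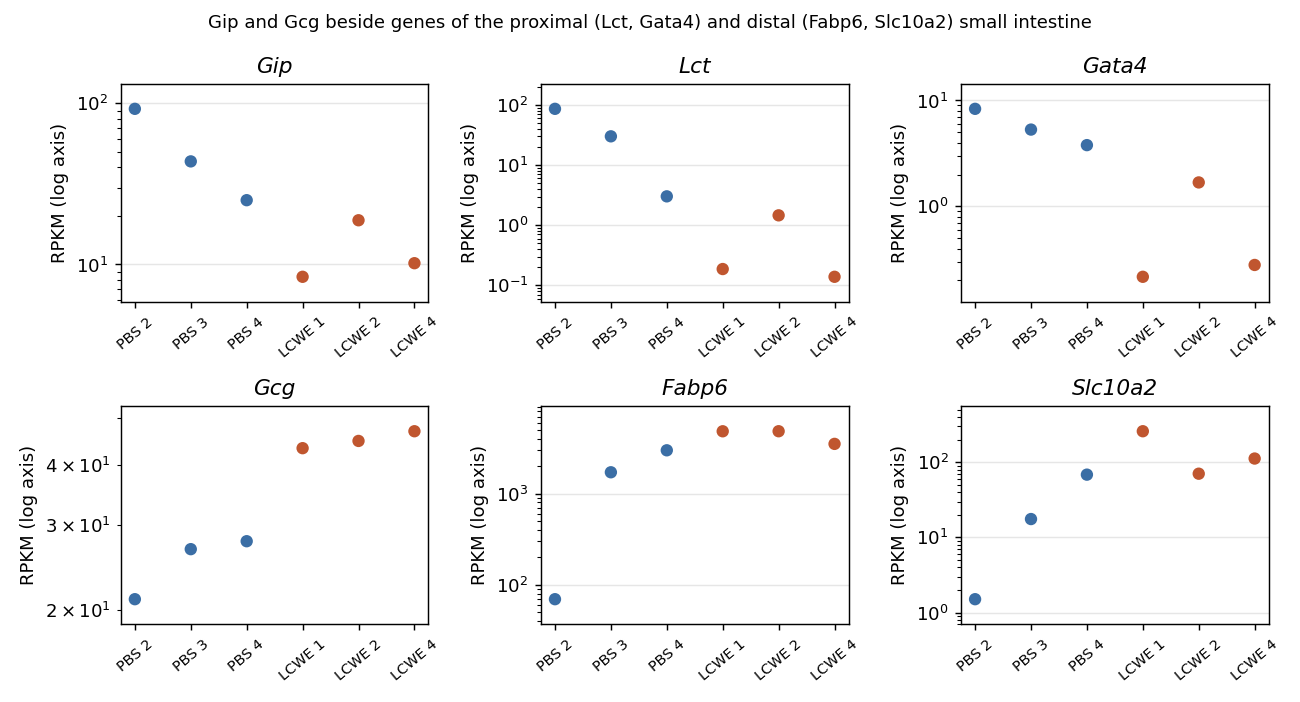
RPKM on log axes of Gip and Gcg and of genes of the proximal (Lct, Gata4) and distal (Fabp6, Slc10a2) small intestine in the 6 intestinal libraries, blue for PBS and orange for LCWE. PBS library 2 has the highest Gip, Lct and Gata4 and the lowest Gcg, Fabp6 and Slc10a2 of the 6.

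The genes nearest to Gip and Gcg in their pattern over the 6 libraries were found by the root mean square difference of centred log2 values, over 13682 genes, and these profiles were chosen after the values were seen. Nearest to Gip were Ugt2a3 (0.20), Slc5a4b (0.25) and Cda (0.25). Ugt2a3, a glucuronosyltransferase, stood at 13.6, 6.68 and 2.64 RPKM with PBS, against 0.657, 1.58 and 0.948 RPKM with LCWE. Slc5a4b belongs to the family of sodium-coupled sugar transporters, and Cda is cytidine deaminase. Nearest to Gcg were Gimap9 (0.08), a GTPase gene of lymphocytes, Bmp3 (0.08), a bone morphogenetic protein, and Hoxc9 (0.08), a position gene of the body axis. Hoxc9 stood at 0.0862, 0.231 and 0.340 RPKM with PBS, against 0.767, 0.652 and 0.911 RPKM with LCWE. None of these 6 passed with limma, with adjusted p between 0.186 and 0.238. The mean profile of all 10 genes was nearly flat, spanning 0.16 on the log2 scale, and the genes nearest to it were Mgat4a, Dync1h1, Naxd, Psmd13, Mcrs1 and Atg4c, at differences of 0.016 to 0.024. Among the 10 themselves, the closest pair was Sct and Pyy, with a difference of 0.21, and Gip was the farthest gene from each of the other 9.

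The wider set of enteroendocrine genes showed no call in either direction. Of 18 genes of granules and prohormone processing, 15 were tested and none passed. Of these, 14 had higher and 1 lower means in LCWE, beside 69% of means higher over all genes. The median log2 difference was 0.18, beside 0.11 over all genes. Their groups did not overlap for 4 genes, all higher (beside 13.2% of all genes in that direction). Pcsk1, the convertase that cuts proglucagon into glucagon-like peptides, stood at 3.05, 3.19 and 3.29 RPKM with PBS, against 4.12, 3.58 and 3.68 RPKM with LCWE (limma, adjusted p = 0.425). Pcsk1n, which encodes an inhibitor of that convertase, stood at 0.392 and 0.735 RPKM by mean, and Ptprn2, a granule membrane protein, at 3.02 and 3.96 RPKM by mean. The second chromogranin gene, Chgb, stood at 296, 298 and 345 RPKM with PBS, against 324, 318 and 336 RPKM with LCWE. Its fold was 1.05, so the slightly lower mean of Chga was not shared by Chgb.

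Of 20 lineage transcription factors, only 6 were tested, none passed and all 6 had higher means (median 0.25), beside 69% of all genes (median 0.11). The groups of 2 of them did not overlap, both higher, beside 13.2% of all genes in that direction. The 3 with the smallest p were Foxa1 (7.63 and 10.4 RPKM by mean in PBS and LCWE), Prox1 (0.544 and 0.758 RPKM) and Hhex (5.28 and 6.85 RPKM). Neurog3, the factor that commits progenitors to the lineage, was too low to be tested, with 16 to 24 reads per PBS library and 20 to 26 reads per LCWE library. Of 13 further hormone genes, 7 were tested, none passed, 5 had higher and 2 lower means (median 0.09). Tac1, the tachykinin gene of enterochromaffin cells and neurons, stood at 0.709 and 1.11 RPKM by mean in PBS and LCWE, Nmb at 0.710 and 0.873 RPKM, and Vip, a peptide of enteric neurons, at 4.87 and 5.91 RPKM.

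Of 10 enterochromaffin and serotonin genes, 6 were tested, none passed, 4 had lower and 2 higher means (median -0.23). Tph1, the enzyme that commits tryptophan to serotonin in the gut, stood at 1.43, 2.18 and 2.56 RPKM with PBS, against 2.57, 1.92 and 2.80 RPKM with LCWE. Ddc, the next enzyme, which enterocytes also make, stood at 16.0 and 8.25 RPKM by mean (limma, adjusted p = 0.262). Maoa, which breaks serotonin down, stood at 221 and 142 RPKM (adjusted p = 0.281), and Slc6a4, the serotonin transporter, at 3.09 and 2.34 RPKM. The groups of Ddc and Maoa did not overlap, beside 6.15% of all genes lower in LCWE.

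Of 15 receptors and transporters that sense gut contents, 7 were tested, none passed, 4 had higher and 3 lower means (median 0.13). Ffar4, a receptor for long-chain fatty acids found on L cells among others, stood at 0.531 and 1.18 RPKM by mean in PBS and LCWE (limma, adjusted p = 0.363). Slc15a1, the peptide transporter of enterocytes, stood at 60.4 and 23.4 RPKM (adjusted p = 0.242), and Lpar5, a lysophosphatidic acid receptor, at 9.51 and 6.66 RPKM (adjusted p = 0.278). The groups of these 3 did not overlap, with Ffar4 higher and the other two lower, beside 13.2% and 6.15% of all genes in those directions. Of 20 genes for hormone receptors and Dpp4, only Glp1r, Glp2r and Dpp4 reached the level for testing, and none passed. Dpp4, the protease that inactivates Gip and glucagon-like peptide, stood at 110 ± 10.4 RPKM in PBS and 70.0 ± 31.3 RPKM in LCWE (SD, n = 3 each; limma, adjusted p = 0.379). Glp1r and Glp2r, receptors for the Gcg products, stood at 1.21 and 1.31 RPKM and at 1.65 and 1.87 RPKM by mean in PBS and LCWE.

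**Figure D5:**
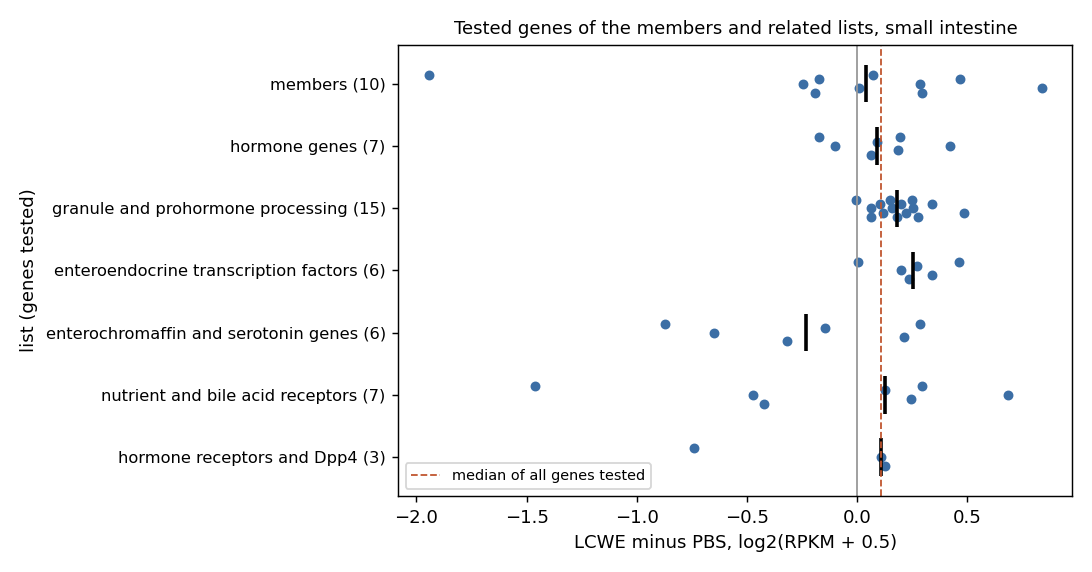
Log2 difference of LCWE minus PBS in small intestine (horizontal axis, log2(RPKM + 0.5)) for each tested gene of the 10 genes studied here (top row) and of 6 related lists, with 1 point per gene, a black bar at the median of each list and a dashed line at the median of all genes. The top row spans from -1.94 (Gip) to 0.84 (Gcg), and the medians of the lists lie between -0.23 and 0.25.

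In the liver, none of the 10 genes reached an RPKM of 0.5 in any library, so none was tested there. Chga had the highest value, between 0.119 and 0.462 RPKM, from 10 to 33 reads. Cck and Pyy had 0 reads in all 6 liver libraries, and Neurod1 had 1 read in 1 of them. Gcg had 4 to 12 reads in each liver library and stood between 0.0706 and 0.180 RPKM. Gip stood at 0, 0.0812 and 0 RPKM in PBS livers 2, 3 and 4 and at 0.153, 0.0648 and 0.168 RPKM in LCWE livers 1, 2 and 4, on at most 4 reads. The lowest intestinal value of any of the 10 genes, 0.647 RPKM for Cck, was above the highest liver value. With no filter on low values, 8 of the 10 could be tested in liver, and none passed (limma, lowest adjusted p = 0.293), beside 335 of all 28274 genes. The 1 unadjusted p below 0.05 was that of Gip, on at most 4 reads, beside 3954 of all genes. A difference of the LCWE effect between the tissues was not tested, since the genes had no liver level to compare.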

How the data were processed

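Members and gene lists were chosen with earlier results of these data known. Per the submitters' processing notes, the build was mm10, and the tools named are edgeR 3.12.1, Subread 1.5.1, featureCounts and Trimmomatic 0.36, with no roles. No aligner is stated. The authors' deposited table gives RPKM per gene and library. Of its 16 library columns, 12 matched samples and 4 were not used. Whole reads were recovered as RPKM times length for 100.0% of non-zero values (tolerance 0.001), giving 30294594 to 40253006 reads in genes per intestinal library and 34741958 to 44921885 per liver library.

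Genes reaching an RPKM of 0.5 in 3 or more libraries of a tissue entered a limma fit (version 3.58.1, R 4.3.3) of log2(RPKM + 0.5), with trended eBayes moderation, a two-sided test, Benjamini-Hochberg adjustment over all genes and a threshold of 0.05. Folds are on that scale, which understates changes of low genes. The procedure was tested on simulated data. The authors' deposited differential table gives a p-value, a false discovery rate and a log2 fold change per gene, and lists 220 intestinal genes, none of the 10 among them. The lowest absolute log2 fold change listed there for the intestine is 1.005, the highest p-value 0.0498 (the authors' test) and the lowest false discovery rate 0.469. At 0.84 here, Gcg is below that fold, and Gip at -1.94 is beyond it. The authors' own p-value for Gip is not given there. Named are all 10 genes, the 3 genes per related list with the smallest p and the 6 nearest in pattern to the mean of the 10. Others were chosen after their values were seen, as was the GATA motif. One marker gene of the colon list is not reported here. Positions are the table's. In GENCODE M21 all 10 overlap a gene of that name on the same strand. The alternatives were other pseudocounts, filters, scalings and moderation, 1 fit over 4 groups, the replicate block, voom and leaving out each library.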

Additional observations from a re-analysis of the deposited data

How the results depend on the processing

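In the 16 other settings the number of the 10 genes past the threshold in the intestine was 0, except for 2 (Gcg and Gip) in 1 fit over 4 groups. That fit takes part of its spread from liver libraries, in which both genes stood near 0. Over all genes the number past the threshold was 243 in that fit. With 1 library left out it was from 0 to 70, the latter without LCWE library 1 and 4 without LCWE library 2. Gcg kept a positive difference (0.72 to 0.91) and Gip a negative one (-2.38 to -1.45) in every setting. In 1 fit over 4 groups their differences were 0.84 and -1.94. Differences near 0 changed sign. Cck was 0.00075 with the replicate block, and -0.396 to 0.0149 with 1 library left out (positive without PBS library 2). Sst was -0.0424 with median-ratio scaling, and -0.0334 to 0.177 with 1 library left out (negative without PBS library 4 or LCWE library 4). Nts was -0.479 to 0.0307 with 1 library left out (positive without PBS library 4 or LCWE library 4). Neurod1 was -0.0976 with quantile and -0.0897 with median-ratio scaling, and -0.174 to 0.125 with 1 library left out (negative without PBS library 2 or LCWE library 4). The causes were not tested. The median of all genes was 0.11 and 0.01 after median-ratio scaling. The replicate block, which joins equal numbers and so rests on libraries 2 and 4, gave 0 calls, with adjusted p = 0.141 for both Gcg and Gip (limma). Deviations of equal numbers correlated at 0.09 and 0.12 across genes, and the labels do not say that a number marks a shared animal or batch. With 1 library left out, an alternative added after the data were seen, groups did not overlap for Gcg and Gip in each case. For these 2 genes that was fixed in advance, since leaving out a library cannot make separate groups overlap. Groups also did not overlap for Ghrl without PBS library 2, Chga without PBS library 3, Sct without PBS library 4, and Pyy and Chga without LCWE library 2. The share of all genes was 24% to 30.8%, except 54.4% without LCWE library 1. The liver result could be repeated only with no filter. Depth limits Cck, Pyy and Ghrl, with under 160 reads per library.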
